A study of Mus musculus with 22 samples.

Results

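The genes described here encode the lysosomal proteases called cathepsins and the subunits of the vacuolar proton pump, measured in mouse bone marrow-derived macrophages (BMDM). They were taken by symbol: every gene whose symbol begins with Atp6v except Atp6v0d2, every gene whose symbol is Cts and 1 letter except Ctsk, and Lamp1, Lamp2, Tfeb and Gpnmb. This gave 41 of the 19505 genes on the array, of which 7 encode subunits of the membrane part of the pump (V0), 13 subunits of its outer part (V1) and 16 cathepsins, 4 were added by name, and Atp6v1fnb shares only the prefix. Ctsd and Atp6v0c, which belong to the same families, were not analysed here. Transcripts were measured on 22 Clariom S arrays of total RNA to ask whether HMB (β-hydroxy-β-methylbutyrate, which the body makes from leucine) promotes M1-like polarization. Marrow cells of C57/bl6 mice were grown into macrophages with medium conditioned by L929 cells, in all groups. The groups were untreated M0 macrophages (Ctrl, 6 arrays), 1 mM HMB (HMB, 6 arrays), 10 ng/ml lipopolysaccharide (LPS, a bacterial wall component, 5 arrays) and both agents at these doses (HMB+LPS, 5 arrays), with 48 h of treatment. Whether replicates are separate animals or cultures is not stated in the labels, nor is the age of the mice, so the p-values rest on a spread between arrays that may be technical.

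Lysosomes are the acidic compartments in which macrophages break down engulfed and worn-out material. The proton pump, or V-ATPase, has a V1 part that splits ATP in the cytosol and a V0 part that passes protons through the membrane, and the acid it makes allows the cathepsins to work. Lamp1 and Lamp2 are the main glycoproteins of the lysosomal membrane, Tfeb is the transcription factor known for binding E-box sequences (CACGTG) in front of lysosomal genes, and Gpnmb is a membrane glycoprotein that macrophages make when lysosomes are loaded.

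All values are log2 signals as deposited, and each of the 41 genes had a single probe set. Probe sets differ in how brightly they bind, so a value was compared between arrays and never between genes. A difference was called when its limma p-value, adjusted over the 22206 probe sets tested, was under 0.05, and errors of differences are standard errors. In bulk RNA, fewer cells of a type and less RNA per cell cannot be told apart. The LPS label was borne out by Lcn2, an LPS-induced secreted protein, which was 15.21 or more on every array with LPS and 8.93 or less on every array without. Markers of macrophages (9 genes, as log2 of their mean linear signal) lay between 16.32 and 17.09 on all arrays. Markers of neutrophils (12 genes) lay between 7.19 and 8.45 without LPS, between 7.86 and 13.59 in LPS and between 10.98 and 13.75 in HMB+LPS, with S100a8 and Mmp8 called higher. Of these 12 genes, 9 (Elane and Mpo among them) never rose above the 95th percentile of the negative control probe sets. Marker lists of T and NK, B and mast cells stayed between 3.51 and 5.33 on every array. Osteoclast markers (9 genes) lay between 9.20 and 11.81 without LPS and 10.89 and 12.95 with it, with Acp5 and Mmp9 called higher. Of these 9 genes, 5 were higher in LPS than in Ctrl and 6 in HMB+LPS than in HMB. Among them, 4 (Ocstamp, Dcstamp, Calcr and Oscar) never rose above that percentile of the negative controls. Dendritic cell markers (9 genes) lay between 6.57 and 8.25 without LPS and 5.37 and 6.98 with it. Yet 6 of the 9 were higher in LPS than in Ctrl (median 0.18) and 5 in HMB+LPS than in HMB (median 0.11). Itgax was called lower in the latter, and the other 8 never rose above that percentile. Fibroblast markers (10 genes) lay between 8.28 and 11.09 without LPS and 8.75 and 10.15 with it. Of these 10 genes 0 were called, with 7 lower in LPS than in Ctrl (median -1.47) and 7 lower in HMB+LPS than in HMB (median -1.23), and HMB was the higher group in 9 without LPS and 10 with it. The part of these cells in the results was not tested.

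The arrays fell into 2 sets that are not groups of the study. Numbers 5 and 6 of Ctrl and HMB stood apart from numbers 1 to 4, and along a signature of 3245 probe sets, made without the 41 genes, numbers 3 and 6 of LPS and numbers 5 and 6 of HMB+LPS were placed beside them. Set B means these 8 arrays, and set A means the remaining 14. Nos2, the inducible nitric oxide synthase, was 15.88 to 16.60 on the 6 arrays of set A with LPS, 5.64 and 5.74 on LPS 3 and LPS 6, and 9.85 and 9.78 on HMB+LPS 5 and HMB+LPS 6. The array set and the strength of the LPS response therefore cannot be told apart. On 6 arrays, all of set A (Ctrl 1, HMB 1, LPS 2, LPS 5, HMB+LPS 2 and HMB+LPS 3), positive controls stood less than 4 log2 units above negative ones.

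Of the 41 genes, 23 gave signals above the 75th percentile of all tested probe sets on all 22 arrays: 12 pump subunits (Atp6v0a1, Atp6v0b, Atp6v0d1, Atp6v0e, Atp6v1a, Atp6v1b2, Atp6v1c1, Atp6v1d, Atp6v1e1, Atp6v1f, Atp6v1g1 and Atp6v1h), 8 cathepsins (Ctsa, Ctsb, Ctsc, Ctsh, Ctsl, Ctso, Ctss and Ctsz), Lamp1, Lamp2 and Gpnmb. Each of the 12 is a different subunit of the pump. In contrast, 10 stayed below the median probe set on every array (1.82 to 5.68), among them the kidney-type subunits Atp6v0a4 and Atp6v1b1, the neutrophil granule protease Ctsg (1.82 to 4.30), Ctsw, known from cytotoxic lymphocytes, Ctsj and Ctsr, which in rodents are known from the placenta, and the isoforms Atp6v0e2, Atp6v1c2 and Atp6v1g3, with Atp6v1fnb. The other 8 (Atp6v0a2, Atp6v1e2, Atp6v1g2, Ctse, Ctsf, Ctsm, Ctsq and Tfeb) lay between. Ctsf never exceeded the 95th percentile of the negative controls on its array, and Ctse did so on 6 of 22 arrays and Tfeb on 3.

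**Figure D1:**
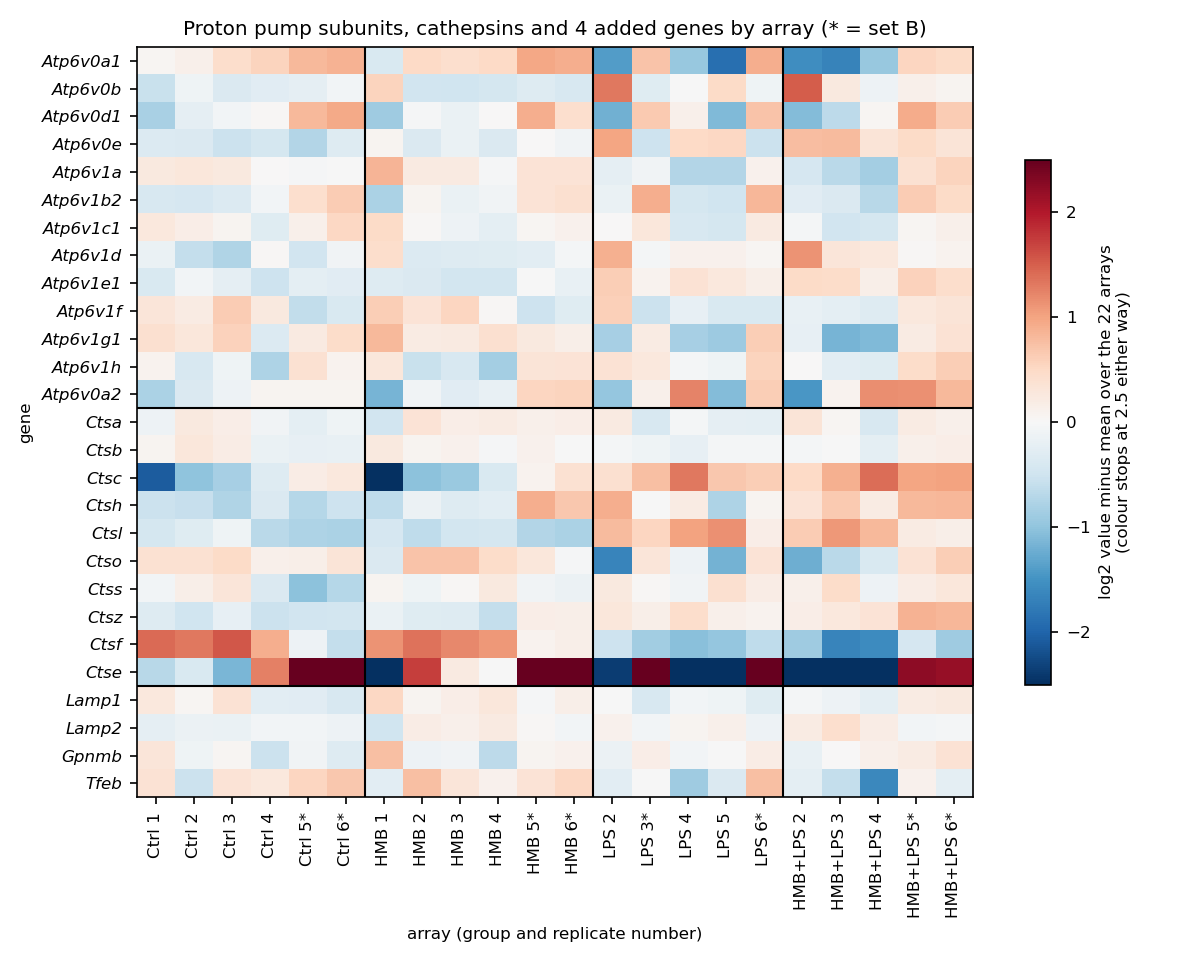
Colour shows each gene's log2 value minus its own mean over the 22 arrays, for 27 genes (the 23 bright ones with Atp6v0a2, Ctsf, Ctse and Tfeb) and for each array by group and replicate number, with arrays of set B starred. Ctsl and Ctsc are red on all 10 arrays with LPS, and Ctsf is blue there. Ctse is dark blue and Atp6v0a1 a lighter blue on the arrays of set A with LPS, and neither is blue on those of set B with LPS.

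LPS raised cathepsin L, both without HMB and with it, and most other lysosomal genes of the list did not pass the test. The signal of cathepsin F was called lower in both comparisons, but its probe set was above the 95th percentile of the negative controls on 0 of 22 arrays. Of 41 genes, 1 was called higher in LPS than in Ctrl (Ctsl) and 1 lower (Ctsf), where 1.08% of all tested probe sets were called higher and 0.788% lower. In HMB+LPS against HMB, 4 were called higher (Ctsl, Ctsc, Ctsz and Atp6v1e1) and 1 lower (Ctsf), where 1.99% of all were called higher and 1.54% lower. These comparisons share no array, though they share the estimate of the spread. The median log2 difference of the 41 genes was 0.06 in LPS against Ctrl, beside 0.00096 over all probe sets, and -0.0048 in HMB+LPS against HMB, beside -0.0059 over all.

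Ctsl encodes cathepsin L, a broad cysteine endopeptidase. The lowest, median and highest of its values were 15.67, 15.91 and 16.35 in Ctrl and 15.67, 15.90 and 16.04 in HMB. In LPS it was 17.25, 16.99, 17.45, 17.61 and 16.62 on arrays 2 to 6, and in HMB+LPS 17.09, 17.54, 17.27, 16.67 and 16.59. All 10 arrays with LPS therefore lay above all 12 without, with the set B arrays lowest in every group. Ctsl was 2.36-fold higher in LPS than in Ctrl (log2 difference 1.24 ± 0.21, adjusted p = 0.0035) and 2.23-fold higher in HMB+LPS than in HMB (1.15 ± 0.21, adjusted p = 0.00269). It was called with each of the 22 arrays left out in turn. Without the 6 arrays of low control separation the differences were 1.09 ± 0.25 (adjusted p = 0.113) and 1.00 ± 0.25 (adjusted p = 0.0523).

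Ctsf encodes cathepsin F, a cysteine protease known for processing the invariant chain in macrophages. Its values ran 7.49, 9.20 and 9.63 (lowest, median, highest) in Ctrl and 8.18, 9.20 and 9.46 in HMB. Arrays 2 to 6 gave 7.58, 7.23, 7.04, 7.12 and 7.46 in LPS and 7.19, 6.44, 6.52, 7.68 and 7.19 in HMB+LPS. The HMB and HMB+LPS arrays did not overlap, while the highest LPS array (LPS 2) was above the lowest Ctrl array (Ctrl 6, of set B). Ctsf fell by 1.55 ± 0.36 on the log2 scale in LPS (adjusted p = 0.0289) and by 1.92 ± 0.36 in HMB+LPS against HMB (adjusted p = 0.00316). None of these signals exceeded that percentile on its array, so the differences describe a dim signal and give no firm fold, and the fall in LPS was no longer called without any 1 of Ctrl 1, Ctrl 2, Ctrl 3, Ctrl 4, LPS 2, LPS 4 or LPS 5 (adjusted p = 0.0596 to 0.0941) or after quantile normalization (-1.39 ± 0.43, adjusted p = 0.0985).

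Ctsc encodes dipeptidyl peptidase I, which activates the serine proteases of granules. In Ctrl it spanned 14.50, 16.005 and 16.84 (lowest, median and highest) and in HMB 13.66, 15.92 and 16.95, with number 1 lowest in both groups. LPS arrays 2 to 6 held 16.98, 17.33, 17.90, 17.26 and 17.19, and HMB+LPS arrays 17.07, 17.47, 17.97, 17.57 and 17.59. Every array with LPS was above every array without, but the gap between the nearest arrays (HMB 6 and LPS 2) was only 0.023. The difference was 1.75 ± 0.46 in HMB+LPS against HMB (adjusted p = 0.0333) and 1.38 ± 0.46 in LPS against Ctrl (adjusted p = 0.134, 1.33 ± 0.41 with the array set as a block, adjusted p = 0.0507, and 1.03 ± 0.24 with the replicate number as a block, which called it, adjusted p = 0.0266). The call in HMB+LPS was lost without any 1 of HMB 1, HMB 2, HMB 3, HMB+LPS 3, HMB+LPS 4 or HMB+LPS 6 (1.33 to 1.77, adjusted p = 0.051 to 0.101). With LPS the values were also closer together. The SD was 0.34 in LPS (n = 5) and 0.32 in HMB+LPS (n = 5). It was 0.88 in Ctrl (n = 6) and 1.18 in HMB (n = 6). Without LPS, numbers 5 and 6 (16.67 to 16.95) lay above numbers 1 to 4 (13.66 to 16.26). Ctrl 1 and HMB 1, the lowest of their groups, were of low control separation. The part of these arrays in the spread was not tested.

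Ctsz, a carboxypeptidase, gave 16.37, 16.44 and 16.71 in Ctrl and 16.32, 16.67 and 17.07 in HMB (lowest, median, highest). In LPS its arrays 2 to 6 read 17.19, 17.06, 17.35, 17.04 and 17.01, and in HMB+LPS 17.08, 17.17, 17.25, 17.79 and 17.74. All LPS arrays were above all Ctrl arrays and all HMB+LPS arrays above all HMB arrays, the nearest of the latter pair being HMB+LPS 2 and HMB 5. The difference was 0.67 ± 0.18 in HMB+LPS against HMB (adjusted p = 0.0416) and nearly as large, 0.64 ± 0.18, in LPS against Ctrl (adjusted p = 0.0797). The former call held in 10 of the 22 fits that left out 1 array, and the differences in the 12 others were 0.58 to 0.73 with adjusted p from 0.0507 to 0.107.

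Among V1 subunits, Atp6v1e1, which encodes the E subunit of the peripheral stalk, stood at 13.15, 13.40 and 13.60 in Ctrl and 13.20, 13.33 and 13.65 in HMB (lowest, median, highest). It read 14.29, 13.75, 14.04, 13.93 and 13.81 on LPS arrays 2 to 6 and 14.15, 14.13, 13.81, 14.23 and 14.11 on HMB+LPS arrays. The arrays with LPS again lay above all arrays without, by 0.095 at the nearest. The difference was 0.72 ± 0.16 (1.65-fold) in HMB+LPS against HMB (adjusted p = 0.0114) and 0.58 ± 0.16 in LPS against Ctrl (adjusted p = 0.0636). The larger of these was called with each array left out in turn, and the smaller with the array set as a block (0.58 ± 0.16, adjusted p = 0.0295). Without the 6 arrays of low control separation, only Ctsc was still called in HMB+LPS against HMB (1.51 ± 0.36, adjusted p = 0.0474), and Atp6v1e1 was at 0.68 ± 0.19 (adjusted p = 0.099), Ctsz at 0.86 ± 0.22 (adjusted p = 0.0631) and Ctsf at -1.74 ± 0.46 (adjusted p = 0.0768). Ctsl, Ctsc and Atp6v1e1 were the 3 of 41 genes whose 10 values with LPS lay above all 12 without, and 0 of 41 lay below. Over all tested probe sets 0.567% lay above and 0.27% below.

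**Figure D2:**
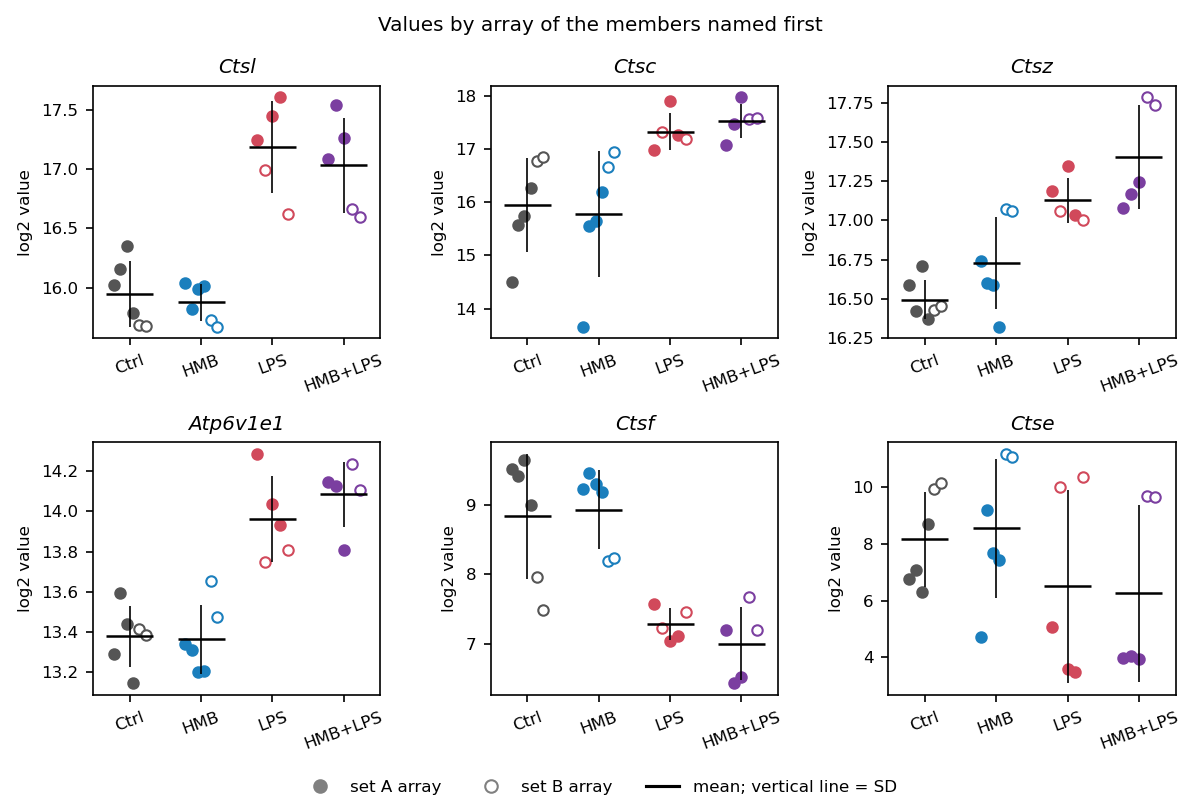
Points are log2 values of single arrays by group for Ctsl, Ctsc, Ctsz, Atp6v1e1, Ctsf and Ctse, with open points for set B, horizontal lines at the group mean and vertical lines of 1 SD either way (n = 6, 6, 5 and 5). Ctsl, Ctsc and Atp6v1e1 with LPS lie above every array without it, and the open points of Ctse stay between 9.64 and 11.18 in all 4 groups.

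The other bright subunits of the pump were not called in either comparison over all arrays, though the array set as a block changed this for Atp6v0a1 and Atp6v0e. Of the 23 bright genes, 13 were higher and 10 lower in LPS than in Ctrl, and 12 and 11 in HMB+LPS against HMB. Within the V0 part, Atp6v0a1, an isoform of the a subunit that lines the proton path, differed by -0.996 ± 0.48 in LPS (adjusted p = 0.344). It differed by -1.12 ± 0.48 in HMB+LPS against HMB (adjusted p = 0.239). With the array set as a block it was called lower in both (-1.08 ± 0.29, adjusted p = 0.0286, and -1.20 ± 0.29, adjusted p = 0.0112). Its arrays without LPS ran 14.27, 14.71 and 15.08 in Ctrl and 13.84, 14.72 and 15.19 in HMB. With LPS it read 12.82, 14.93, 13.27, 12.34 and 15.12 on arrays 2 to 6, and with both agents 12.66, 12.55, 13.28, 14.76 and 14.70. The 6 arrays of set A with LPS, 12.34 to 13.28, thus lay below all 12 arrays without LPS, and the 4 of set B, 14.70 to 15.12, lay among them. Atp6v0e, a small membrane subunit, was 0.64 ± 0.24 higher in LPS (adjusted p = 0.187) and 0.69 ± 0.24 higher in HMB+LPS against HMB (adjusted p = 0.119, or 0.0432 with the array set as a block). The proteolipid subunit Atp6v0b and the rotor subunit Atp6v1d were highest on LPS 2 and HMB+LPS 2 and, without LPS, on HMB 1, which are all arrays of low control separation.

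Of the remaining V1 subunits, differences in LPS against Ctrl were -0.46 ± 0.25 for Atp6v1a, the catalytic A subunit, 0.16 ± 0.32 for its partner Atp6v1b2, and 0.32 ± 0.26 for the regulatory subunit Atp6v1h. The stalk subunit Atp6v1g1 gave -0.62 ± 0.31, and Atp6v1c1 and Atp6v1f -0.20 ± 0.20 and -0.24 ± 0.27 (adjusted p = 0.38 or more for these 6). Atp6v1g2, the G isoform known from neurons, had one of the 5 widest spans over arrays among the 41 genes. It ran 4.81, 6.77 and 7.99 in Ctrl and 5.68, 6.75 and 7.003 in HMB (lowest, median, highest), 6.66, 7.27, 6.63, 6.66 and 8.04 in LPS and 7.22, 6.46, 7.34, 7.76 and 7.31 in HMB+LPS. All groups overlapped, and no array exceeded the 95th percentile of its negative controls.

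Other bright cathepsins were not called in either comparison. Ctsb, an abundant cysteine protease, held 17.996, 18.16 and 18.49 in Ctrl, 18.18, 18.29 and 18.46 in HMB (lowest, median, highest), 18.17, 18.10, 18.01, 18.16 and 18.16 in LPS and 18.16, 18.19, 17.97, 18.33 and 18.37 in HMB+LPS. Both groups with LPS overlapped Ctrl, while all HMB arrays lay just above all LPS arrays, and the interval of the difference in LPS ran from -0.40 to 0.23 (95%, log2). Ctss, known for cutting the invariant chain in antigen presentation, gave 16.41, 17.22 and 17.73 in Ctrl, 17.29, 17.41 and 17.67 in HMB, 17.69, 17.46, 17.35, 17.84 and 17.63 in LPS and 17.56, 17.88, 17.31, 17.62 and 17.72 in HMB+LPS. Its lowest values were those of Ctrl 5 and Ctrl 6, and the difference in LPS was 0.45 ± 0.21 (adjusted p = 0.342). Ctsa, a carboxypeptidase that also protects other lysosomal enzymes, differed by -0.11 ± 0.19, and Ctsh, an aminopeptidase, by 0.66 ± 0.28 (adjusted p = 0.273).

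The membrane proteins Lamp1, Lamp2 and Gpnmb showed no called difference in any of the comparisons. Lamp1 ran 16.31, 16.62 and 17.09 in Ctrl and 16.68, 16.87 and 17.23 in HMB (lowest, median, highest), 16.70, 16.32, 16.65, 16.61 and 16.41 in LPS and 16.67, 16.58, 16.47, 16.92 and 16.97 in HMB+LPS, with a 95% interval from -0.51 to 0.24 for LPS minus Ctrl. Lamp2 gave 16.98, 17.07 and 17.14 in Ctrl, 16.70, 17.28 and 17.42 in HMB, 17.31, 17.14, 17.26, 17.32 and 17.07 in LPS and 17.41, 17.62, 17.38, 17.14 and 17.15 in HMB+LPS, with an interval from -0.18 to 0.49. The 4 groups overlapped for Lamp1, and for Lamp2 the HMB+LPS arrays stood at or above the Ctrl arrays. Gpnmb read 17.49, 17.93 and 18.32 in Ctrl, 17.36, 18.02 and 18.77 in HMB, 17.89, 18.19, 17.96, 18.01 and 18.22 in LPS and 17.84, 18.04, 18.16, 18.23 and 18.38 in HMB+LPS, with an interval from -0.30 to 0.58. Tfeb, the regulator, ran 8.70, 9.58 and 9.90 in Ctrl and 8.97, 9.56 and 9.99 in HMB, with 8.97, 9.23, 8.35, 8.88 and 9.99 in LPS and 8.99, 8.64, 7.62, 9.34 and 8.99 in HMB+LPS. Its lowest array was HMB+LPS 4, and the difference was -0.43 ± 0.31 in LPS (adjusted p = 0.582). In HMB+LPS against HMB it was -0.81 ± 0.31 (adjusted p = 0.168), and -0.85 ± 0.26 with the array set as a block (adjusted p = 0.042). With 1 array left out, the former ran from -0.97 to -0.54, the latter value without HMB+LPS 4. Tfeb was above the 95th percentile of negative controls on 3 of 22 arrays, so these differences give no firm fold.

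**Figure D3:**
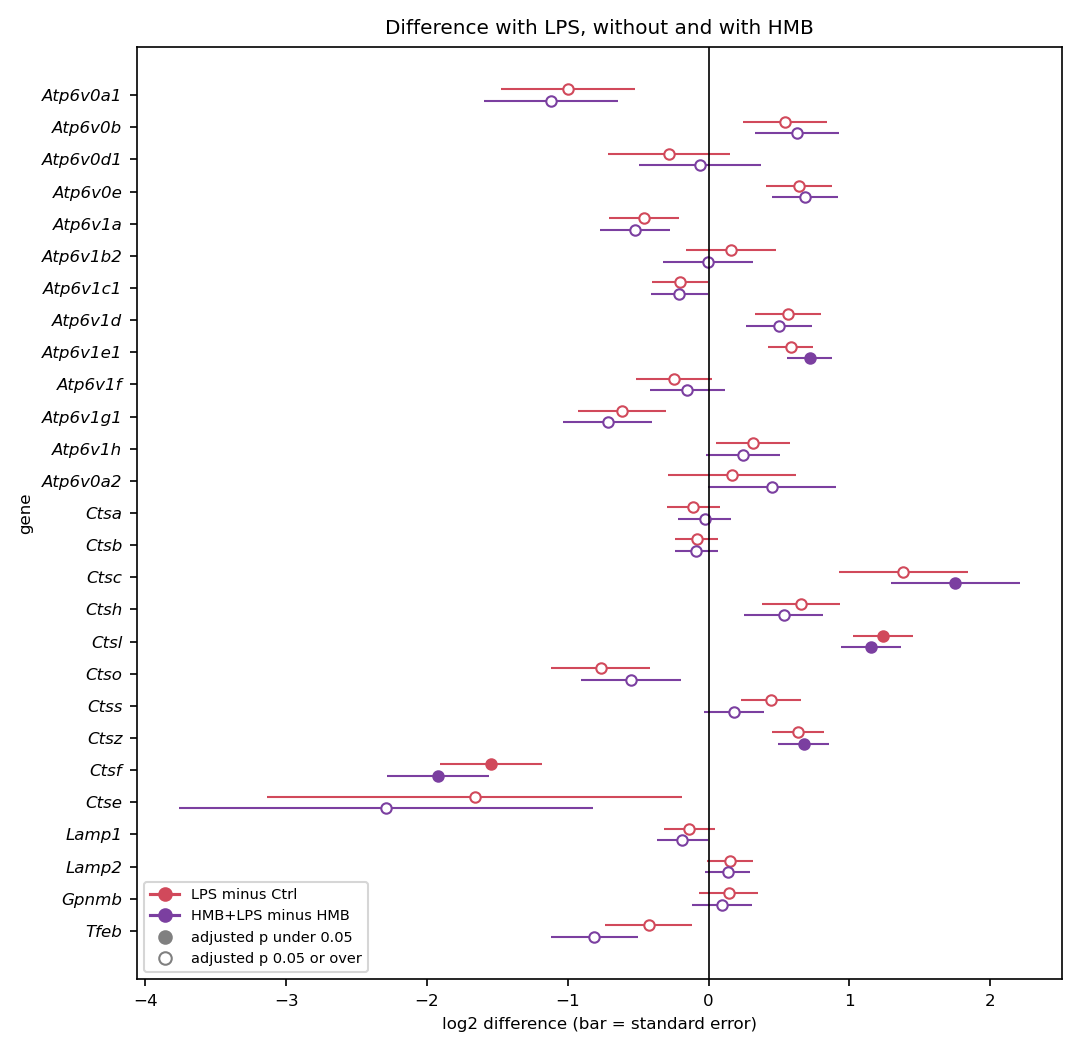
Log2 differences with LPS, without HMB (LPS minus Ctrl) and with it (HMB+LPS minus HMB), for 27 genes, with bars of 1 standard error either way and filled points where the adjusted p was under 0.05. Ctsl and Ctsf are filled in both comparisons, and Lamp1, Lamp2, Gpnmb, Ctsa and Ctsb lie within 0.19 of 0 in both.

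Within set A, whose arrays had the strong LPS response, more probe sets were called in LPS than over all arrays (2341 against 414), and more members with them (8 against 2). Within set A (3 LPS and 4 Ctrl arrays), 3 were called higher in LPS (Ctsc, Ctsl and Atp6v0e, where 4.22% of all tested probe sets were) and 5 lower (Ctse, Ctsf, Atp6v0a1, Ctso and Atp6v1g1, where 6.33% were). In HMB+LPS against HMB within set A, 4 were higher (Ctsc, Ctsl, Atp6v0e and Atp6v1e1, beside 4.46% of all) and 5 lower (Ctse, Ctsf, Atp6v0a1, Atp6v1g1 and Atp6v1a, beside 5.82%). Within set B (2 arrays per group), 0 members were called in LPS, where 0.509% of all were called higher and 0.045% lower, and 5 members had an unadjusted p under 0.05. There the HMB+LPS arrays differed from HMB in Ctsl (0.93 ± 0.18, adjusted p = 0.0374) and Ctse (-1.45 ± 0.19, adjusted p = 0.00999), beside 2.89% of all called higher and 2.72% lower. With the array set as a block, 3 were called higher (Ctsl, Ctsz and Atp6v1e1) and 2 lower (Ctsf and Atp6v0a1) in LPS, beside 2.81% and 3.86% of all, and 5 higher and 4 lower in HMB+LPS against HMB, beside 4.01% and 4.91%. A difference between the sets was not tested, and each set has few arrays. The genes named in the next paragraphs were chosen for these calls, after their values were seen.

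The aspartic protease Ctse had the widest span of the 41 genes. It ran 6.33, 7.90 and 10.17 in Ctrl and 4.73, 8.44 and 11.18 in HMB (lowest, median, highest), 5.09, 9.99, 3.61, 3.48 and 10.35 on LPS arrays 2 to 6 and 3.98, 4.06, 3.93, 9.71 and 9.64 on HMB+LPS arrays. Values of set A with LPS (3.48 to 5.09) were low, below each array's median probe set. The same held for HMB 1, without LPS (4.73). Values of set B with LPS stayed near 10, though there HMB+LPS (mean 9.67) was called lower than HMB (mean 11.13). Within set A the difference was -3.16 ± 0.80 in LPS (adjusted p = 0.0176) and -3.28 ± 0.80 in HMB+LPS against HMB (adjusted p = 0.0149), while within set B it was 0.11 ± 0.19 in LPS (adjusted p = 0.903). Over all arrays, no difference of Ctse was called without a block (-1.66 ± 1.47 in LPS, adjusted p = 0.675). With the array set as a block, Ctse was called lower in HMB+LPS against HMB, and not in LPS against Ctrl. As Ctse was above the 95th percentile of negative controls on 6 arrays only, the low values give no firm level.

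Pump subunits moved in both directions within set A. Atp6v0a1 was -1.70 ± 0.31 in LPS (adjusted p = 0.00185) and -1.65 ± 0.31 in HMB+LPS against HMB (adjusted p = 0.00249), and within set B -0.03 ± 0.16 and -0.42 ± 0.16. Atp6v1g1 ran 12.82, 13.50 and 13.73 in Ctrl and 13.30, 13.40 and 13.98 in HMB, with 12.33, 13.37, 12.33, 12.24 and 13.77 in LPS and 12.96, 12.0003, 12.06, 13.37 and 13.52 in HMB+LPS. LPS 3 and LPS 6 thus lay at the level of the Ctrl arrays and the other LPS arrays below all of them, giving -1.09 ± 0.30 within set A (adjusted p = 0.0288) and 0.07 ± 0.20 within set B. In contrast, Atp6v0e ran 13.58, 13.91 and 13.996 in Ctrl and 13.95, 14.18 and 14.37 in HMB, and read 15.29, 13.79, 14.82, 14.83 and 13.77 in LPS and 15.09, 15.11, 14.63, 14.79 and 14.64 in HMB+LPS. The LPS arrays of set A and all 5 HMB+LPS arrays were above every Ctrl and HMB array, and the difference within set A was 1.09 ± 0.24 in LPS (adjusted p = 0.0066). Of the 7 arrays behind the set A comparison in LPS, Ctrl 1, LPS 2 and LPS 5 were of low control separation, and their part in these calls was not tested.

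The cathepsins were also compared within each set. For LPS minus Ctrl, Ctsl came to 1.36 ± 0.23 among arrays of set A and 1.13 ± 0.18 among those of set B (adjusted p = 0.00109 and 0.0729), and Ctsz 0.67 ± 0.22 and 0.59 ± 0.15 (adjusted p = 0.0649 and 0.232). Ctsc came to 1.86 ± 0.53 and 0.45 ± 0.18 in the same order, and Ctsf -2.14 ± 0.26 and -0.38 ± 0.25. Ctso, a cysteine protease, was called lower in set A (-1.33 ± 0.37, adjusted p = 0.0287, against 0.09 ± 0.19 in set B), and its 3 lowest arrays were LPS 2, HMB+LPS 2 and LPS 5 (10.60, 11.04 and 11.08), all of low control separation. Ctss gave 0.19 ± 0.25 in set A and 0.98 ± 0.18 in set B (adjusted p = 0.104 in the latter).

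**Figure D4:**
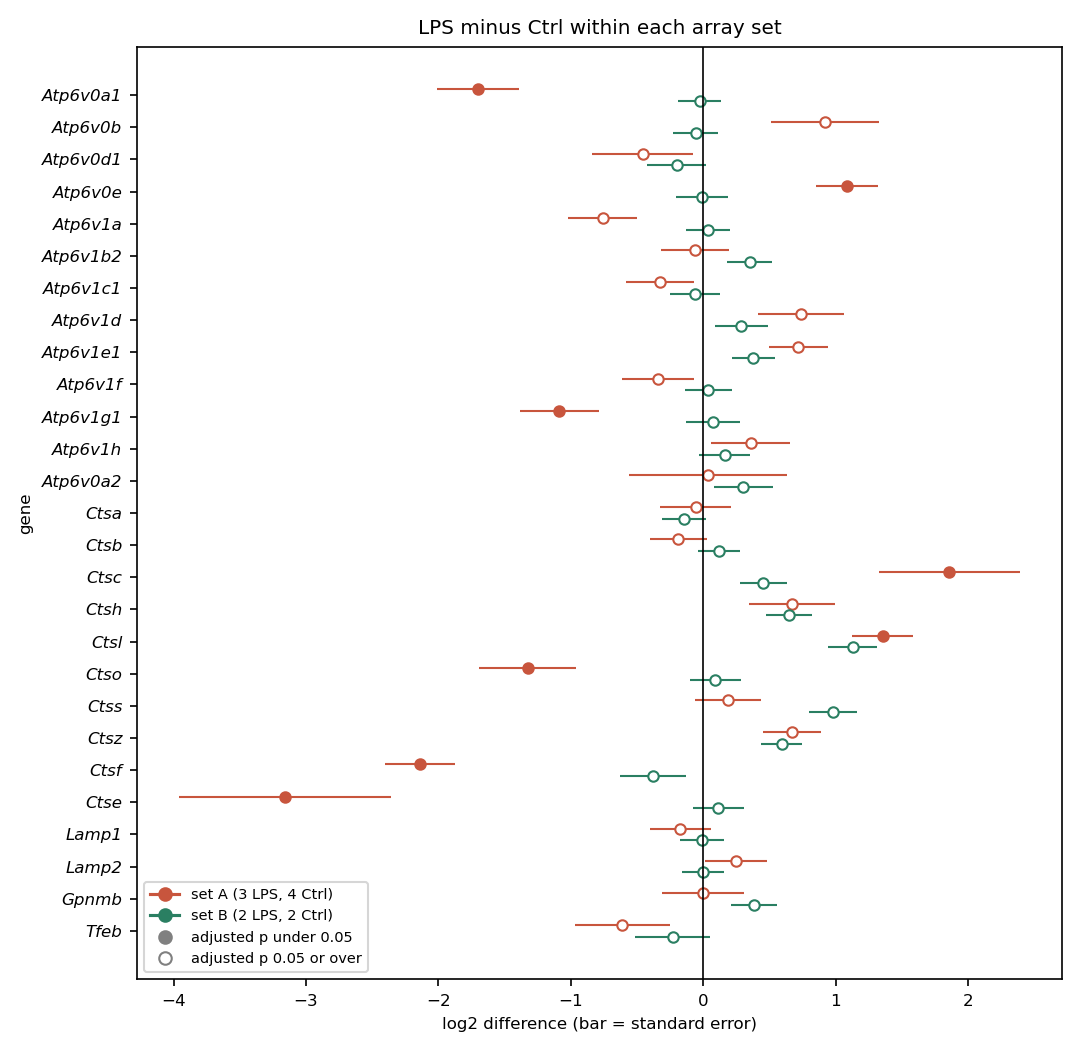
Log2 differences of LPS minus Ctrl for 27 genes within set A (3 against 4 arrays) and within set B (2 against 2), with bars of 1 standard error either way and filled points where the adjusted p was under 0.05. Filled points are all of set A, with Ctse farthest left at -3.16, and the set B values of Ctse, Atp6v0a1, Atp6v1g1 and Ctso lie between -0.03 and 0.11.

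HMB alone called no gene of the list. Against Ctrl, 0 of 41 were called, as were 0% of all tested probe sets by limma, and 2 members (Ctsh and the dim Atp6v0a4) and 410 probe sets had an unadjusted p under 0.05. The methods' unpaired test likewise gave 0 after adjustment, with 3 members under 0.05 before it. In macrophages given LPS, adding HMB also called 0 of 41 and 0% of all (0 members and 686 probe sets before adjustment, or 2 members by the methods' unpaired test). The median difference of the 41 genes was 0.08 for HMB minus Ctrl and 0.12 for HMB+LPS minus LPS, beside -0.016 and -0.0090 over all probe sets, and 26 of 41 were positive in each, beside 47% and 48.7% of all. The HMB effect with LPS minus that without called 0 members and 0% of all, with 1 member (Atp6v0a4) and 465 probe sets before adjustment. For Ctsl the HMB effect was -0.07 ± 0.20 without LPS (95% interval -0.49 to 0.35) and -0.15 ± 0.22 with it (-0.62 to 0.31). For Lamp1 it was 0.23 ± 0.17 (-0.13 to 0.59) and 0.18 ± 0.19 (-0.21 to 0.57), and for Tfeb 0.02 ± 0.29 (-0.59 to 0.63) and -0.37 ± 0.32 (-1.03 to 0.30).

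Ctsh, the aminopeptidase, gave the 1 call for HMB among the members, and only within set B. It ran 14.48, 14.68 and 14.89 in Ctrl and 14.60, 15.04 and 16.15 in HMB (lowest, median, highest), 16.15, 15.23, 15.45, 14.47 and 15.32 in LPS and 15.58, 15.90, 15.46, 16.06 and 16.07 in HMB+LPS. HMB 5 and HMB 6 (16.15 and 15.92) were the highest HMB arrays, the next being 15.10, whereas HMB 1 was within the Ctrl range. The difference over all arrays was 0.61 ± 0.27 (adjusted p = 1), and within set B (2 against 2 arrays) 1.41 ± 0.18 (2.66-fold, adjusted p = 0.0439). This was the 1 member called within set B, where 0.221% of all probe sets were called higher and 0.261% lower. Within set A, 0 members and 0% of all were called (1 member with an unadjusted p under 0.05). With LPS, HMB called 0 members within set A, beside 0% of all, and 0 within set B, beside 2.2% called higher and 2.49% lower, with 3 and 10 members under 0.05 before adjustment. The smallest adjusted p among members in set B was 0.0502, with Atp6v0e at 0.93 ± 0.20, Ctsh at 0.79 ± 0.18 and Ctsz at 0.73 ± 0.15.

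**Figure D5:**
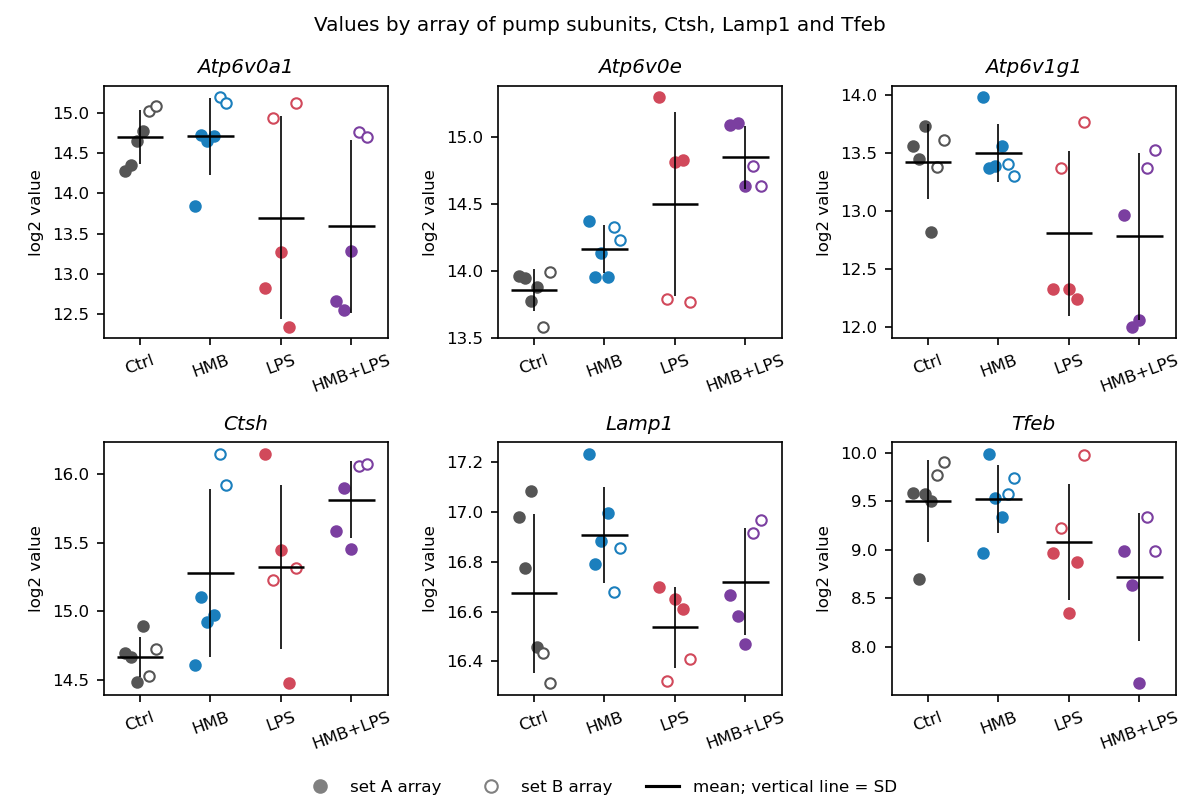
Points are log2 values of single arrays by group for Atp6v0a1, Atp6v0e, Atp6v1g1, Ctsh, Lamp1 and Tfeb, with open points for set B, horizontal lines at the group mean and vertical lines of 1 SD either way (n = 6, 6, 5 and 5). Atp6v0a1 with LPS splits into 6 filled points from 12.34 to 13.28 and 4 open points from 14.70 to 15.12, and Ctsh in HMB has its 2 open points on top at 16.15 and 15.92.

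Without LPS, numbers 5 and 6 (4 arrays) and numbers 1 to 4 (8 arrays) were separated by members at about the share of all probe sets. The values did not overlap for 5 of 41 members that were higher on numbers 5 and 6 (Ctse, Ctsc, Atp6v0d1, Atp6v1b2 and Atp6v0a1) and 3 that were lower (Ctsf, Atp6v1f and Ctsl), where 10.1% of all probe sets were higher and 6.08% lower without overlap. Ctse was 9.96 to 11.18 on numbers 5 and 6 and 4.73 to 9.19 on numbers 1 to 4. Ctsf was 7.49 to 8.23 against 8.996 to 9.63. Atp6v0d1, the subunit that joins V0 to the central stalk, was 14.26 to 14.79 against 12.95 to 13.88. These are values only, since numbers 5 and 6 were set apart after the data had been seen.

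Ctsk and Atp6v0d2, family members known for osteoclasts, were left out of the selection, and both were higher on LPS 3 and LPS 6 than on the other LPS arrays. Without LPS, numbers 5 and 6 overlapped numbers 1 to 4 for both genes. Ctsk read 6.28, 10.61, 8.35, 6.87 and 10.60 on LPS arrays 2 to 6, against 5.24, 6.14 and 7.69 in Ctrl (lowest, median, highest), and its LPS difference was 4.29 ± 0.34 within set B (adjusted p = 0.00751) and 0.98 ± 0.65 within set A (adjusted p = 0.407). Atp6v0d2 read 11.13, 14.56, 10.54, 10.52 and 14.24 in LPS and 12.18, 12.66 and 14.19 in Ctrl, so that it was higher on LPS 3 and LPS 6 and lower on the others. Its difference was -2.38 ± 0.51 within set A (adjusted p = 0.00617) and 2.08 ± 0.24 within set B (adjusted p = 0.0231). Ctsk exceeded the percentile of the negative controls used above on 4 of 22 arrays, all of set B with LPS. Atp6v0d2 exceeded it on 14, but not on the LPS arrays of set A. The Ctsk differences and the set A difference of Atp6v0d2 therefore involve dim signals and give no firm fold. The Ctrl and LPS arrays of set B were above that percentile for Atp6v0d2.

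Genes of related lysosomal functions were described in the same fits, and their counts stand beside 1.08% of all probe sets called higher and 0.788% lower in LPS, and 1.99% and 1.54% in HMB+LPS against HMB. Of 29 other lysosomal hydrolases, 0 were called in LPS against Ctrl, with Galc (galactosylceramidase) at -1.26 ± 0.34 (adjusted p = 0.0578) and Aga (aspartylglucosaminidase) at 0.79 ± 0.24 (adjusted p = 0.102). In HMB+LPS against HMB, Aga rose by 1.11 ± 0.24 and Galc fell by 1.54 ± 0.34 (adjusted p = 0.0101 and 0.0105). The median of the hydrolases was -0.06 in LPS, and with HMB added to LPS 25 of 29 were positive with a median of 0.17 and 0 called, beside 48.7% positive and a median of -0.0090 over all probe sets. Among 22 other lysosomal membrane proteins, the proton-coupled amino acid transporter Slc36a1 rose by 1.40 ± 0.33 in LPS (adjusted p = 0.0307), and 3 of 22 were called higher in HMB+LPS against HMB (Slc36a1, Slc11a1 and Litaf). Of 13 other genes linked with the pump, mostly accessory and assembly factors, the V0 assembly factor Vma21 fell by 1.53 ± 0.38 in LPS (adjusted p = 0.0394). The vesicle protein Dmxl2 was the 1 called with HMB present (2.05 ± 0.51, adjusted p = 0.024).

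Of 22 relatives and partners of Tfeb in lysosomal signalling, Rragc, a Rag GTPase that recruits mTORC1 to the lysosome, fell by 0.85 ± 0.21 in LPS (adjusted p = 0.0391). With HMB present, Rragc again was called lower (-0.77 ± 0.21, adjusted p = 0.0437) and the Tfeb relative Tfec higher (1.25 ± 0.29, adjusted p = 0.015). Of 10 genes linked with Gpnmb and lysosomal load, the macrophage elastase Mmp12 rose by 1.27 ± 0.33 in LPS (adjusted p = 0.0469), and with HMB present Mmp12 was called higher and Trem2 and Lpl lower. No gene was called in LPS against Ctrl among 21 autophagy genes (Atg9a at 0.66 ± 0.20, adjusted p = 0.095, and Tecpr1 at -1.38 ± 0.51, adjusted p = 0.188) or 13 cathepsin inhibitors (Cst3, cystatin C, at -0.67 ± 0.22 and Serpinb6a at -1.13 ± 0.38, adjusted p = 0.134 for both). The same held for 14 sorting genes, which carry new enzymes to the lysosome (the mannose 6-phosphate receptor M6pr at 0.76 ± 0.29, adjusted p = 0.218, and Gga3 at -0.60 ± 0.29, adjusted p = 0.34). With HMB present, Atg9a was called higher, Serpinb6a lower and no sorting gene either way. HMB itself called none of these 8 lists' genes, with or without LPS, where 0% of all probe sets were called. In HMB+LPS against LPS, 17 of 22 membrane proteins, 11 of 13 cathepsin inhibitors and 16 of 21 autophagy genes were also positive. The same held for 14 of 22 Tfeb relatives and partners and 6 of 10 genes linked with Gpnmb. It held for 7 of 14 sorting genes and 6 of 13 genes linked with the pump, beside 48.7% of all probe sets.

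Promoters of the members were searched for the E-box CACGTG that Tfeb is known to bind, in the 250 bases before each start site, where the same letters read on both strands. RefSeq promoters (GRCm38.p6) were found for 32 of the 41 genes, with 36 start sites. The E-box was in 6 of the 36 promoters (16.7%, of Atp6v0b, Atp6v1a, Ctsa, Ctsf, Ctsl and Lamp1), beside 6.02% of all 32851 promoters of the same length. The longer form TCACGTGA, which overlaps it, was in 5.56% of the members' promoters (Atp6v1a and Ctsa), beside 0.785% of all. The windows printed here were chosen for the cathepsin genes called up and down by LPS, Ctsl and Ctsf, and for Lamp1, with 4 copies, and Ctsa and Atp6v1a, with the longer form, none of which was called over all arrays. Each is printed 5′ to 3′ on the gene's strand with the E-box in capitals.
Ctsl (chr13:64370721-64370770, minus strand): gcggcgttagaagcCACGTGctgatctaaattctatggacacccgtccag
Ctsf (chr19:4855056-4855121, plus strand): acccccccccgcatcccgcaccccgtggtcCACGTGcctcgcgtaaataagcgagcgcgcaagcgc
Lamp1 (chr8:13159070-13159160, plus strand): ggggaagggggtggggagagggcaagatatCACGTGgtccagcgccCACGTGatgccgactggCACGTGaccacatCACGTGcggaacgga
Ctsa (chr2:164833751-164833772, plus strand): agcaaactgtCACGTGatgcag
Atp6v1a (chr16:44139355-44139420, minus strand): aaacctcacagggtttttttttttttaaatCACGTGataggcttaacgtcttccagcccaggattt
The E-box began 236 bases before the start site in Ctsl, 79 in Ctsf, 131 in Atp6v1a and 12 in Ctsa, and from 61 to 15 in Lamp1. Of these 5 genes, Ctsl was higher and Ctsf lower with LPS, and Lamp1, Ctsa and Atp6v1a differed by -0.14, -0.11 and -0.46 in LPS against Ctrl without being called. A match of letters describes the sequence and was not measured as a site of binding.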

How the data were processed

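The authors deposited log2 values per probe set for 22 Clariom S arrays (values from 0.97 to 19.44). How the background was corrected, how arrays were normalized and with which software is not stated in the sources read for this work. Of 28846 probe sets, 6640 were controls and 22206 were tested as deposited, and the platform annotation gives 1 gene symbol for 19572 of these. Arrays give no read depth, and their number limits the precision. The 95th percentile of the negative controls (9.79 to 11.81) lay above much of the tested signal, so it was used to describe dim probe sets and only as an alternative to filter them.

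Comparisons were two-sided and were fitted in R 4.3.3 by limma 3.58.1 (functions lmFit, contrasts.fit, eBayes; 4 group means over 22 arrays in 1 fit), with Benjamini-Hochberg adjustment over all 22206 probe sets and a threshold of 0.05. The fit was run on simulated independent normal values, which held no array sets and no arrays of low control separation. Its behaviour with those features was not tested. Members, gene lists and array sets were chosen with earlier results of these data known. Genes named were those called, the 5 with the highest means, the 5 with the widest spans, Lamp1, Lamp2, Tfeb and Gpnmb, up to 4 called genes of each related list (or the 2 with the smallest p), and Nos2 and Lcn2 as a check of the label. For array sets, probe sets that differed between numbers 5 and 6 and numbers 1 to 4 without LPS (4271) were reduced to those with an unadjusted p over 0.05 for both LPS comparisons (3249), and then to those of no member (3245). Arrays were placed along this signature, with 0 at the mean of numbers 1 to 4 without LPS and 1 at that of numbers 5 and 6. Set A lay from -0.35 to 0.30 and set B from 0.77 to 0.98. Alternatives were quantile normalization, centring, a filter on dim probe sets, the replicate number or array set as a block, single sets, no arrays of low control separation, only the groups compared, the methods' unpaired test and each array left out in turn. Deviations from the group means of same-numbered Ctrl and HMB arrays correlated in all 6 pairs (r = 0.183 to 0.627). No label states a pairing. Deviations of LPS and HMB+LPS arrays correlated positively for numbers 2, 4 and 6 (0.545 to 0.615) and negatively for 3 and 5 (-0.515 and -0.516). At number 3 the LPS array was of set B and the HMB+LPS array of set A, and at number 5 the reverse. Arrays of different numbers were not compared, so pairing by number and the array sets cannot be told apart. The numbers of LPS 3 and LPS 5 may be crossed, which was not tested. Values with the replicate number as a block rest on the labelled numbers. Promoters were taken from RefSeq (GRCm38.p6). Figures were drawn with matplotlib 3.10.9.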

Additional observations from a re-analysis of the deposited data

Results flagged for a closer look

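In 9 of 164 sets of values (1 gene in 1 group), the highest or lowest array stood far from the others of its group, where chance gives about 8.2 (1 in 20). Atp6v0b was 12.08 on HMB 1, against 11.21 on the next highest HMB array, and 13.04 on HMB+LPS 2, against 11.78. Atp6v1d was 13.31 on HMB 1, against 12.81 on the next, 13.76 on LPS 2, against 12.99, and 14 on HMB+LPS 2, against 13.17. Ctsa was 15.47 on HMB 1, below the other HMB arrays, the nearest of which was 16.07. These 6 values came from HMB 1, LPS 2 and HMB+LPS 2, where positive controls stood 3.78, 3.65 and 3.82 log2 units above negative ones. The part of the control separation in them was not tested. Tfeb was 8.696 on Ctrl 2, against 9.505 or more on the others, and at dim signal Ctsr was 3.338 on HMB 5, against 4.177 or more, and Ctsw was 4.606 on Ctrl 3, against 4.072 or less.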

How the results depend on the processing

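For LPS minus Ctrl, 2 members were called (Ctsl and Ctsf), against 1 after quantile normalization (Ctsl), 5 with the set as a block, 8 within set A, 0 within set B, 0 without the arrays of low control separation (38 probe sets called), 1 with only the groups compared and 0 by the methods' unpaired test (9 probe sets called). Leaving out 1 array gave 1 to 3. For HMB+LPS minus HMB, 5 were called, against 9 with the set as a block, 9 within set A, 2 within set B, 1 without the arrays of low control separation (Ctsc) and 2 with only the groups compared. Leaving out 1 array gave 3 to 5. For HMB minus Ctrl the count was 0, or 1 within set B, and it was 0 for the difference between HMB effects and for HMB+LPS minus LPS under every alternative run. With the replicate block, in which LPS numbers 3 and 5 may be crossed, 3 members were called for LPS minus Ctrl (Ctsc added) and 5 for HMB+LPS minus HMB, and no other call changed. Over all probe sets the counts for LPS minus Ctrl were 414 as fitted, 670 with the replicate block, 1482 with the set as a block, 2341 within set A, 123 within set B and 117 with only the groups compared. For HMB+LPS minus HMB they were 785, 1982 with the set as a block, 2283 within set A, 1245 within set B, 357 without the arrays of low control separation and 423 by the methods' unpaired test.

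No called difference changed sign under any alternative. Ctsl ran from 1.09 to 1.38 for LPS minus Ctrl and from 0.93 to 1.33 for HMB+LPS minus HMB, Ctsf from -2.14 to -0.38 and from -2.57 to -0.77, Ctsc from 0.77 to 2.24, Ctsz from 0.58 to 0.86 and Atp6v1e1 from 0.61 to 0.79. The filter on dim probe sets removed Ctsf, and called Atp6v1e1 and Ctsz for LPS minus Ctrl. Averaging probe sets per gene changed nothing, since each member had 1. Leaving out the arrays of low control separation left 3 LPS arrays, 2 of them of set B. Dim probe sets and few arrays limit what could be called.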
